A study of Mus musculus with 16 samples.

Results

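The transcripts of 10 heat shock chaperones were followed in sorted germinal centre B cells of mice. The rule names 10 genes by symbol and uses no expression value, and each symbol had 1 row among the 49584 listed genes. They are the HSP70 genes Hspa1a, Hspa1b and Hspa8, the HSP110 gene Hsph1, the J-domain genes Dnaja1 and Dnajb1, the HSP90 genes Hsp90aa1 and Hsp90ab1, and the mitochondrial chaperonin genes Hspd1 and Hspe1. All 10 passed the filter on low counts that left 15240 genes for testing.

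The RNA came from spleens of C57BL/6J mice aged 3 months, taken 8 days after sheep red blood cells (SRBC) were given, and all mice carried the same litter label. Mutant mice had the genotype Ezh2(Y641F)fl/wt;Cγ1-cre, a heterozygous conditional Y641F allele of the H3K27 methyltransferase gene Ezh2, and control mice carried Cγ1-cre without that allele. The Cγ1-cre allele acts in B cells that have begun to transcribe the immunoglobulin Cγ1 locus, so cells of other types in a sort are not expected to carry the recombined allele. From each genotype, B220+, FAS+, CD38- cells were sorted into centrocytes, the light zone cells (CXCR4-, CD86+), and centroblasts, the dark zone cells (CXCR4+, CD86-). The 4 groups, in the order used below, are mutant centrocytes, control centrocytes, mutant centroblasts and control centroblasts, with 4 libraries each; naive B cells named in the design were not analysed here.

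Heat shock chaperones bind unfolded or partly folded proteins and release them in cycles of ATP binding and hydrolysis. J-domain proteins deliver clients to HSP70 and speed its ATP hydrolysis, HSP110 proteins exchange its nucleotide, and HSP90 takes over later folding steps of kinases, receptors and transcription factors. In mitochondria, HSP60 (Hspd1) forms a folding chamber that HSP10 (Hspe1) closes. Some of these genes are made at a steady level in dividing cells, whereas others, Hspa1a and Hspa1b above all, are kept low until heat shock factor 1 (HSF1) binds repeated GAA units in their promoters; in tissue that is cut, warmed and sorted they are also known as genes of handling stress. B cells of the germinal centre divide fast in the dark zone and are selected in the light zone.

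Libraries held 35230563 to 44466911 counted reads. Expression of Ezh2 was 174 to 205 CPM (scaled counts per 1000000 counted reads) in mutant centrocytes against 224 to 256 CPM in control centrocytes, and 183 to 256 CPM in mutant centroblasts against 236 to 335 CPM in control centroblasts; a point mutation cannot be checked from gene counts. The sort markers followed the labels, with Cxcr4 lower in centrocytes (log2 fold change -1.32 ± 0.102 in mutants and -1.17 ± 0.102 in controls) and Cd86 higher (0.93 ± 0.175 and 0.95 ± 0.175). All 13 listed germinal centre B cell markers had reads, and their summed level was 9987 to 12950 CPM over the libraries of the 4 groups. Summed CPM of 20 macrophage markers, none of them at 0 in all 16 libraries, was 394 and 400.3 in mutant centrocyte replicates 3 and 4. The sum was 59.9 and 100.2 in the other 2 mutant centrocyte libraries and 89.8 to 153 in control centrocytes. It was 42.9 to 127 in mutant centroblasts and 33.0 to 99.4 in control centroblasts. Replicates 1 and 2 of each group were male and replicates 3 and 4 female by Y-linked transcripts.

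The 10 transcripts differed widely in level. Per kilobase of exon sequence, which is the scale used here to compare genes, Hsp90ab1 averaged 980.0 CPM per kb over the 16 libraries and ranked 34 of 14774 genes with an annotated length. Next came Hspa8 at 81.5, Hspd1 at 38.9, Dnajb1 at 30.2, Hsp90aa1 at 29.9, Hspe1 at 22.8 and Hsph1 at 20.2 CPM per kb. Dnaja1 stood lower at 4.68 CPM per kb, and the stress-inducible genes Hspa1b and Hspa1a came last at 0.581 and 0.17 CPM per kb. The place of Dnaja1 depends on its annotated exon length of 8.63 kb, the longest of the 10. Before division by length it averaged 40.4 CPM, above Hspe1 at 33.7 CPM. The ranges over libraries did not meet between Hsp90ab1 and Hspa8, between Hspa8 and Hspd1, between Hsph1 and Dnaja1, or between Dnaja1 and Hspa1b. All other neighbours in the order overlapped; Dnajb1 exceeded Hsp90aa1 in 8 of 16 libraries, Hspe1 exceeded Hsph1 in 10 of 16 and Hspa1b exceeded Hspa1a in 15 of 16.

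**Figure D1:**
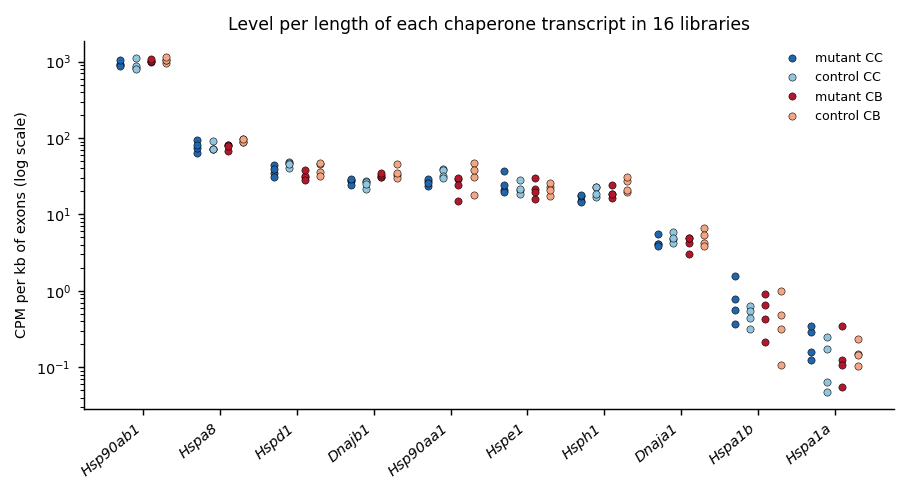
CPM per kb of exons on a log axis for each chaperone, 1 point per library, coloured by group (CC centrocytes, CB centroblasts). Hsp90ab1 stood above 792 CPM per kb in every library, 7 genes lay between it and Hspa1b, and Hspa1b and Hspa1a reached at most 1.56 and 0.351 CPM per kb.

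Together the 10 genes took 0.382% ± 0.032 of all counted reads (SD, n = 16 libraries), and Hsp90ab1 alone accounted for 76.7% ± 2.43 of the members' reads. Their summed share was 0.357% ± 0.020 in mutant centrocytes and 0.376% ± 0.043 in control centrocytes, and 0.381% ± 0.010 in mutant centroblasts and 0.415% ± 0.021 in control centroblasts (SD, n = 4 each). With 10614 to 16433 reads per library for Hspa8 and 91181 to 133418 for Hsp90ab1, counting error was small beside the spread between libraries; Hspa1a rested on 6 to 38 reads and Hspa1b on 12 to 163.

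Several of these genes have close copies, which limits what a read can be assigned to. Of all 50-base stretches of the longest Hspa1a transcript, 66.3% also occur in transcripts of other genes, mostly Hspa1b. That share is 62.3% for Hspa1b, 58.5% for Hsp90aa1, 52.7% for Hspa8, 44.8% for Hspd1 and 28.8% for Dnaja1, whose partners apart from Hspa1a are largely processed pseudogenes and predicted genes such as Gm12346, Gm15459 and Hspd1-ps3. It is 8.2% for Hspe1, 4.49% for Hsp90ab1, 0.441% for Dnajb1 and 0 for Hsph1. How the authors' counting treated reads with several matches is not given in the sources used here, so levels of Hspa1a and Hspa1b are uncertain as single genes. The same limit holds for the levels of Hsp90aa1, Hspa8, Hspd1 and Dnaja1, and so for their places in the order per kilobase.

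On GRCm38, the build named mm10 in the submitters' processing notes, Hspa1a (chr17:34969190-34972156) and Hspa1b (chr17:34956436-34959238) are single-exon neighbours on the minus strand. Hspd1 (chr1:55077835-55088243, minus strand) and Hspe1 (chr1:55088132-55091307, plus strand) run in opposite directions and share 112 bases at their 5′ ends. The others are scattered: Hspa8 at chr9:40800984-40810087, Hsph1 at chr5:149614287-149636376, Dnaja1 at chr4:40722150-40737149, Dnajb1 at chr8:83608193-83612653, Hsp90aa1 at chr12:110690605-110702728 and Hsp90ab1 at chr17:45567775-45573271.

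RefSeq promoter windows on GRCm38.p6, 250 bases before to 50 bases after a start, were at hand for 7 of the 10 genes; Hspa8, Hsp90aa1 and Hsp90ab1 had none. The 250 bases before the start are printed for the 2 near-identical inducible genes, for the shared Hspd1 and Hspe1 region, for Hsph1, which moved with that pair across libraries, and for Dnajb1, which carried the one called difference. Capitals mark matches to GAANNTTC or TTCNNGAA, the 2 arrangements of 2 inverted GAA units of a heat shock element; both patterns read the same on either strand and can overlap.
Hspa1a (chr17:34972157-34972406, minus strand): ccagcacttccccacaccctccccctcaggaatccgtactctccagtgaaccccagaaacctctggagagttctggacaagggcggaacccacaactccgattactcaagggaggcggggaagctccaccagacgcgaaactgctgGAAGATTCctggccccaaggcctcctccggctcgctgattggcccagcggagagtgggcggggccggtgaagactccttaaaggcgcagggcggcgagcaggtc
Hspa1b (chr17:34959239-34959488, minus strand): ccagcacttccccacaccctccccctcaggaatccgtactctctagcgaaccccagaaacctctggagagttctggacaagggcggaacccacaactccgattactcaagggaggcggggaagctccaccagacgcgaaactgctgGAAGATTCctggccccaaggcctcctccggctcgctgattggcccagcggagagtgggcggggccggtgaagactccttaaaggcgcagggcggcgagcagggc
Hspe1 (chr1:55087898-55088147, plus strand): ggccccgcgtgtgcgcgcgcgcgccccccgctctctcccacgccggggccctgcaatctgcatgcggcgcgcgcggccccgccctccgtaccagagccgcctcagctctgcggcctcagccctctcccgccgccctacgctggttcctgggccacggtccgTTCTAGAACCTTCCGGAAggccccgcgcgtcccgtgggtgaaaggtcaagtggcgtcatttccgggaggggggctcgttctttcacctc
Hsph1 (chr5:149636337-149636586, minus strand): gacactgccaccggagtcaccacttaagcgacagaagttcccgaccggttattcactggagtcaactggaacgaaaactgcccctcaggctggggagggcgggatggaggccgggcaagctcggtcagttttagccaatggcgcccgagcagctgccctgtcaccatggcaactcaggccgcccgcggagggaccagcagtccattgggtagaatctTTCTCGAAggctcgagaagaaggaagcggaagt
Dnajb1 (chr8:83607925-83608174, plus strand): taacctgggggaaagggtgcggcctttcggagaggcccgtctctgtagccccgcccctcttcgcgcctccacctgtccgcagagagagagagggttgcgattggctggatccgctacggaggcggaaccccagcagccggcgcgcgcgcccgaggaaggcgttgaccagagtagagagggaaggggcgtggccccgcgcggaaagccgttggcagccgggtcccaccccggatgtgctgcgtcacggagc

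Of the 7 genes with windows, 6 held at least 1 match to either pattern in any of their windows, against 17% of all 27025 genes in the table counted the same way. The near-identical Hspa1a and Hspa1b, and Hspd1 and Hspe1 with their shared site, are not independent cases. Hspa1a and Hspa1b each held 1, GAAGATTC, beginning 104 bases before the start, and their windows differed at 4 of 300 bases, counted from the 5′ end of the window (C44T, T47C, T249G and C276T, Hspa1a to Hspa1b). In the Hspd1 and Hspe1 region 3 overlapping matches form 1 run of 18 bases, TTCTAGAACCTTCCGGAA at chr1:55088059-55088076, beginning 89 bases before the Hspe1 start and lying, read on the other strand, 144 bases before 1 of the 2 listed Hspd1 starts. Its pattern, TTCNNGAANNTTCNNGAA, occurred in 5 of the 32851 windows (0.0152%), a count that includes the Hspd1 and Hspe1 windows holding this same site. Hsph1 held TTCTCGAA 33 bases before the first listed start and a second run, TTCTGGAAAGTTC, after it. Dnaja1 held GAAAATTC 124 bases before 1 of its 3 listed starts. Dnajb1 held no match in either window. A match is a description of letters and no measure of factor binding.

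Of 40 results, 10 genes in 4 comparisons, 1 passed an adjusted p of 0.05 (edgeR quasi-likelihood test, Benjamini-Hochberg over 15240 genes): Dnajb1 was lower in control centrocytes than in control centroblasts. The mutant against control comparison called 0 of 10 in centroblasts, where 10.5% of all tested genes were called (6.4% lower and 4.06% higher), and 0 of 10 in centrocytes, where 16.5% were called (9.15% lower and 7.37% higher). Between zones the counts were 0 of 10 in mutants, against 16% of all genes (7.07% lower and 8.92% higher), and 1 of 10 in controls, against 27.8% (12.9% lower and 14.9% higher). DESeq2 also called 0, 0, 0 and 1 of them. At an unadjusted p under 0.05 stood 3 in centroblasts (Hspd1, Hsph1 and Hspa8) and 2 in centrocytes (Hspd1 and Hsph1) for the genotype, and 1 in mutants (Dnajb1) and 2 in controls (Dnajb1 and Hspa8) for the zone. The same threshold held for 22.8%, 31.3%, 29.7% and 38.7% of all genes in these 4 comparisons, in that order.

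**Figure D2:**
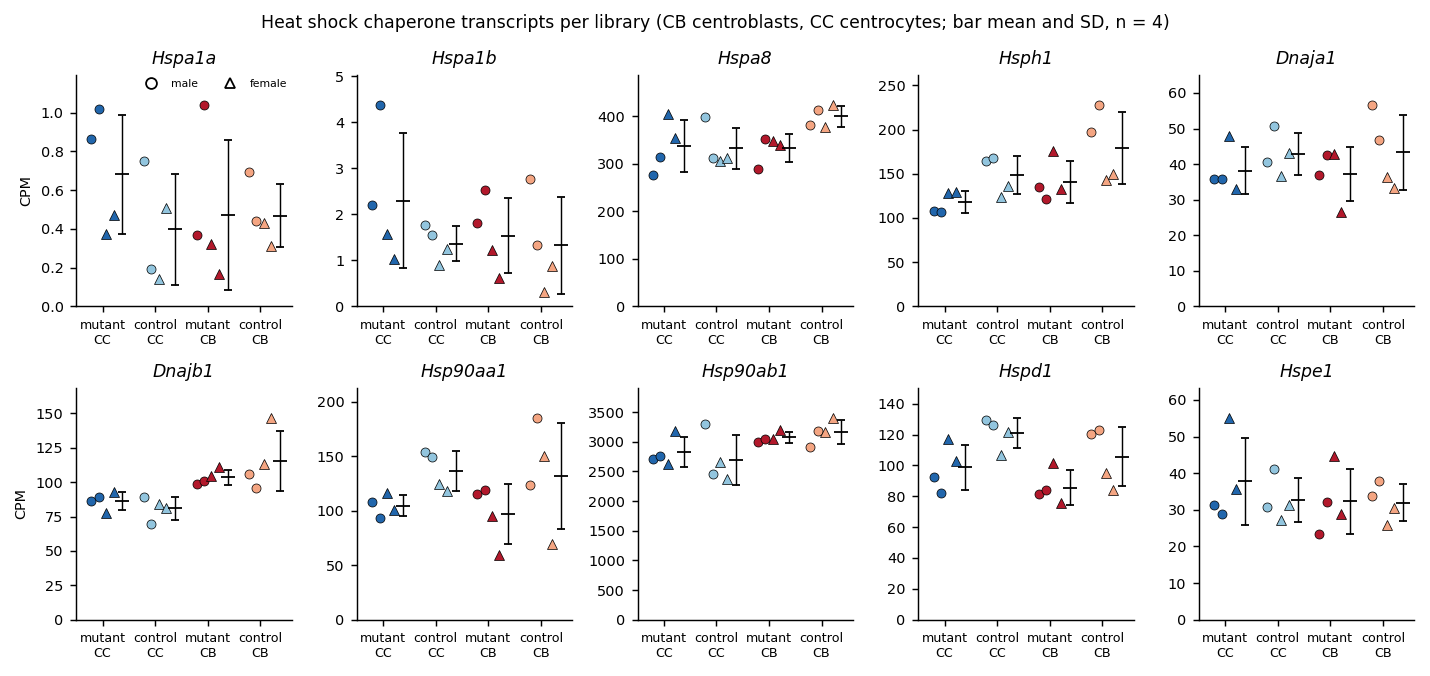
CPM of each chaperone in the 16 libraries on linear axes from 0, groups in the order mutant and control centrocytes (CC), mutant and control centroblasts (CB); circles are male and triangles female libraries, and the bar beside each group is its mean with SD (n = 4). Dnajb1 in control centrocytes (69.6 to 89.1 CPM) lies wholly below control centroblasts (95.9 to 147 CPM), while most other panels overlap between groups.

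Among the HSP70 genes, Hspa1a and Hspa1b, which heat shock and other protein damage switch on, were low in all groups. Hspa1a measured 0.862, 1.02, 0.373 and 0.474 CPM in mutant centrocytes against 0.749, 0.191, 0.141 and 0.510 CPM in control centrocytes. In mutant centroblasts it measured 0.367, 1.04, 0.321 and 0.165 CPM against 0.693, 0.439, 0.432 and 0.309 CPM in control centroblasts. The groups overlapped throughout, and the fitted log2 differences between mutants and controls were 0.79 ± 0.555 (SE) in centrocytes and 0.01 ± 0.561 in centroblasts, with intervals (95%) of -0.38 to 1.96 and -1.17 to 1.20.

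Hspa1b was the more abundant of the pair, at 2.19, 4.38, 1.58 and 1.03 CPM in mutant centrocytes against 1.77, 1.55, 0.892 and 1.24 CPM in control centrocytes. Centroblasts gave 1.81, 2.52, 1.21 and 0.606 CPM in mutants against 2.77, 1.34, 0.305 and 0.877 CPM in controls. Replicate 2 of the mutant centrocytes was the highest library, and the mutant against control differences, 0.75 ± 0.540 in centrocytes (adjusted p = 0.363) and 0.22 ± 0.546 in centroblasts (adjusted p = 0.857), lay within the spread between libraries. Their intervals (95%) reached up to folds of 3.71 and 2.58. In every group both male libraries of Hspa1b exceeded both female libraries, so a male against female comparison, chosen after these values were seen, was added. Hspa1b was 1.34 to 4.38 CPM in the 8 male libraries (mean 2.29 ± 0.971, SD) and 0.305 to 1.58 CPM in the 8 female libraries (0.967 ± 0.396), a log2 difference of 1.24 ± 0.258 (adjusted p = 0.0218). It was the 1 member of 10 called, where 1.4% of all genes were called (0.177% higher and 1.22% lower in males). Without the filter on low counts 3 members were called, Hspa1b, Hspa1a (0.93, adjusted p = 0.0387) and Hsp90aa1, and with the GC and length offset Hspa1b alone. The Hspa1b call was kept in 15 of 16 repeats with 1 library left out (adjusted p = 0.0579 without mutant centrocyte replicate 4) and was not made in centroblast libraries alone (1.51, adjusted p = 0.258) or centrocyte libraries alone (0.98, adjusted p = 0.51). Centrocyte and centroblast libraries with the same number may share mice, which would make this p too small, and sex cannot be told apart from anything else that replicates 1 and 2 share.

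The constitutive HSP70 gene Hspa8 encodes HSC70, which folds new proteins and uncoats clathrin vesicles. It measured 277, 315, 405 and 354 CPM in mutant centrocytes against 398, 313, 306 and 312 CPM in control centrocytes. In mutant centroblasts it measured 289, 352, 348 and 340.2 CPM against 382, 414, 378 and 424 CPM in control centroblasts. The centroblast genotypes did not overlap, yet the difference of -0.27 ± 0.120 (interval -0.52 to -0.01) missed the threshold (adjusted p = 0.195); non-overlapping groups with the mutant lower were found for 8.01% of all genes. Control centrocytes differed from control centroblasts by -0.27 ± 0.120 as well (adjusted p = 0.112), and replicate 1 of the control centrocytes alone reached into the centroblast range; without it the difference was -0.37 (adjusted p = 0.0311). Mutant centrocytes and mutant centroblasts differed by 0.02 ± 0.120.

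Hsph1 encodes HSP105, an HSP110 protein that exchanges the nucleotide of HSP70 and helps dissolve aggregates. Mutant centrocytes had 108, 107, 129 and 129.7 CPM against 165, 168, 124 and 136 CPM in control centrocytes. Mutant centroblasts had 135, 121, 175 and 133 CPM against 198, 228, 142 and 149.9 CPM in control centroblasts. The mutants differed by -0.33 ± 0.155 in centrocytes (adjusted p = 0.159) and -0.35 ± 0.155 in centroblasts (adjusted p = 0.187), with overlapping groups and no call. The male control libraries, replicates 1 and 2, were the highest of each control group, while the highest library of each mutant group was female. In the added male against female comparison Hsph1 differed by 0.09 ± 0.111 (adjusted p = 0.752).

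Dnaja1 encodes a farnesylated J-domain partner of HSC70. It measured 35.8, 35.9, 48.0 and 33.1 CPM in mutant centrocytes against 40.6, 50.8, 36.6 and 43.1 CPM in control centrocytes. Centroblasts had 37.0, 42.5, 42.9 and 26.4 CPM in mutants against 56.7, 46.8, 36.4 and 33.4 CPM in controls. All 4 comparisons lay between -0.22 and 0.04 on the log2 scale, with standard errors of 0.182.

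Dnajb1 encodes HSP40, the J-domain protein that pairs with HSP70 in disaggregation and binds HSF1 in the feedback that ends the heat shock response. Control centrocytes had 89.1, 69.6, 84.0 and 81.4 CPM, and control centroblasts had 106, 95.9, 113 and 147 CPM. The groups did not overlap, as was true for 12.3% of all genes with the centrocytes lower, and the fitted fold was 0.702 (0.590 to 0.834), a log2 difference of -0.51 ± 0.118 (adjusted p = 0.00386). Mutant centrocytes had 86.6, 89.3, 77.6 and 92.6 CPM, and mutant centroblasts had 99.0, 100.5, 104 and 111 CPM. They did not overlap either (10.5% of all genes with the centrocytes lower, 22% in either direction), but the difference of -0.26 ± 0.118 did not pass (adjusted p = 0.144). With each of the 16 libraries left out in turn the control difference was -0.38 to -0.59 and passed every time; the smallest value came without control centroblast replicate 4, the library at 147 CPM. The genotype effect of Dnajb1 in centrocytes minus that in centroblasts was 0.25 ± 0.167 (adjusted p = 0.999), so the 2 zone differences were not shown to differ. In bulk RNA, fewer cells that express a gene and less of its RNA per cell cannot be told apart.

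Hsp90aa1, the stress-inducible HSP90 gene, varied within groups, with coefficients of variation of 9.19% to 36.8%. It measured 108, 93.4, 116 and 101 CPM in mutant centrocytes against 154, 149, 124 and 118 CPM in control centrocytes, with every mutant below every control. Non-overlapping groups with the mutant lower made up 12.4% of all genes in centrocytes. The difference of -0.38 ± 0.235 was not called in the fit over 16 libraries (adjusted p = 0.283) and was called in a fit of the centrocyte libraries alone, at -0.39 (adjusted p = 0.0241). Mutant centroblasts had 115, 119, 95.5 and 59.0 CPM and control centroblasts 123, 185, 150.3 and 69.8 CPM, which overlap. Replicate 4 was lowest in both centroblast groups; the centroblast difference was -0.44 ± 0.235 (adjusted p = 0.281), and without control centroblast replicate 4 it was -0.66 (adjusted p = 0.0244).

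Hsp90ab1, the constitutive HSP90 gene and the most abundant of the 10, had coefficients of variation of 2.97% to 15.6%. Its levels were 2708, 2764, 2617 and 3188 CPM in mutant centrocytes against 3304, 2451, 2653 and 2376 CPM in control centrocytes. Mutant centroblasts had 2997, 3039, 3054 and 3206 CPM against 2917, 3189, 3164 and 3399 CPM in control centroblasts. Between genotypes it differed by 0.07 ± 0.111 in centrocytes (fold interval 0.889 to 1.23) and by -0.04 ± 0.111 in centroblasts (fold interval 0.825 to 1.14). Control centrocytes other than replicate 1 lay below all control centroblasts; the zone difference was -0.23 ± 0.111 in controls (adjusted p = 0.132) and -0.35 (adjusted p = 0.0189) without that library.

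Hspd1 and Hspe1, the mitochondrial HSP60 and its HSP10 lid, share their promoter region and, on opposite strands, part of their annotated gene spans. Whether their exons overlap there was not examined, and whether counting used strand is not given in the sources used here. Hspd1 measured 92.8, 82.0, 117 and 103 CPM in mutant centrocytes against 129, 126, 107 and 121 CPM in control centrocytes. In mutant centroblasts it measured 81.5, 83.8, 102 and 75.5 CPM against 121, 123, 94.8 and 84.3 CPM in control centroblasts. The mutants differed by -0.29 ± 0.137 in centrocytes (adjusted p = 0.153) and -0.30 ± 0.137 in centroblasts (adjusted p = 0.189), and the groups overlapped in both. After an offset for GC content and transcript length the centrocyte difference was -0.31 and passed (adjusted p = 0.0366).

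Hspe1 measured 31.3, 29.0, 55.0 and 35.8 CPM in mutant centrocytes against 30.9, 41.1, 27.2 and 31.4 CPM in control centrocytes. Centroblasts had 23.5, 32.2, 44.6 and 28.9 CPM in mutants against 33.8, 37.8, 25.9 and 30.4 CPM in controls. Its genotype differences were 0.21 ± 0.211 in centrocytes and 0.02 ± 0.211 in centroblasts, without a call. Replicate 3 was the highest library of both mutant groups, for Hspe1 as for Hspd1.

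**Figure D3:**
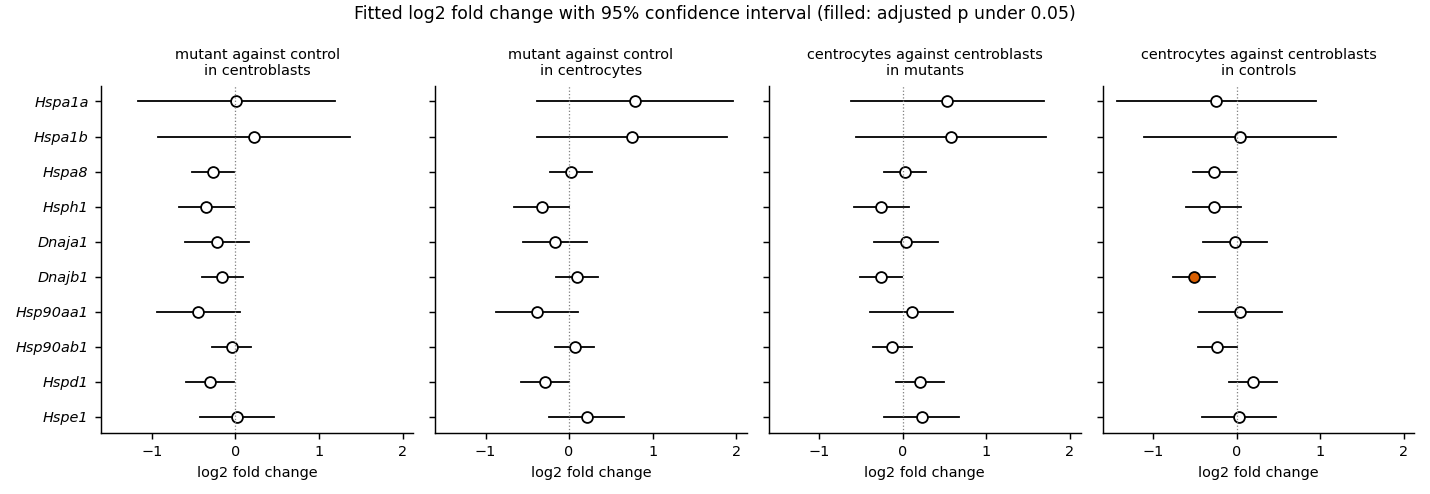
Fitted log2 fold change (points) with 95% confidence interval (lines) of each chaperone in the 4 comparisons; filled points passed an adjusted p of 0.05. The filled point is Dnajb1 between zones in controls (-0.51), and the intervals of Hspa1a and Hspa1b are the widest.

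The median log2 difference over the 10 genes was 0.04 in mutant against control centrocytes, beside 0.001 over all tested genes, and -0.19 in mutant against control centroblasts, beside 0.008. Between zones it was 0.07 in mutants, beside 0.018, and -0.12 in controls, beside 0.005. In centroblasts 7 of 10 lay below 0 for the mutant and in centrocytes 4 of 10. The test of whether the genotype effect differed between centrocytes and centroblasts called 0 of 10 members and 0% of all 15240 genes with edgeR (429 genes at an unadjusted p under 0.05, none of them members), and DESeq2 called 0 members; the members' values ran from 0.01 to 0.77.

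The members varied with each other to different degrees across libraries. After each group's mean was taken off, 29 of 45 pairs correlated positively and 12 had a Pearson r above 0.5 (16 libraries that share 4 group means; a description without a test). Hsph1 and Hspd1 were closest at 0.859, followed by Dnaja1 with Hspd1 at 0.772 and the chaperonin pair Hspd1 and Hspe1 at 0.771. Hsph1 with Hspe1 reached 0.709 and Hspa1a with Hspa1b, which share most of their sequence, 0.636. Dnajb1 had its highest value with Hsp90ab1, at 0.59, and negative values of -0.754 with Hsp90aa1, -0.733 with Dnaja1 and -0.633 with Hspd1.

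These values shift with base composition, which ranges from 41.2% GC in Dnaja1 to 58.9% in Hspa1a. After an offset for GC content and transcript length 4 pairs stayed above 0.5: Hsph1 with Hspe1 at 0.822, Hsph1 with Hspd1 at 0.801, Hspd1 with Hspe1 at 0.723 and Hspa1a with Hspa1b at 0.702. Dnajb1 then had -0.641 with Hsp90aa1 and -0.369 with Hspd1, against 0.365 with Hspa8, 0.232 with Hsp90ab1 and 0.16 with Dnaja1.

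**Figure D4:**
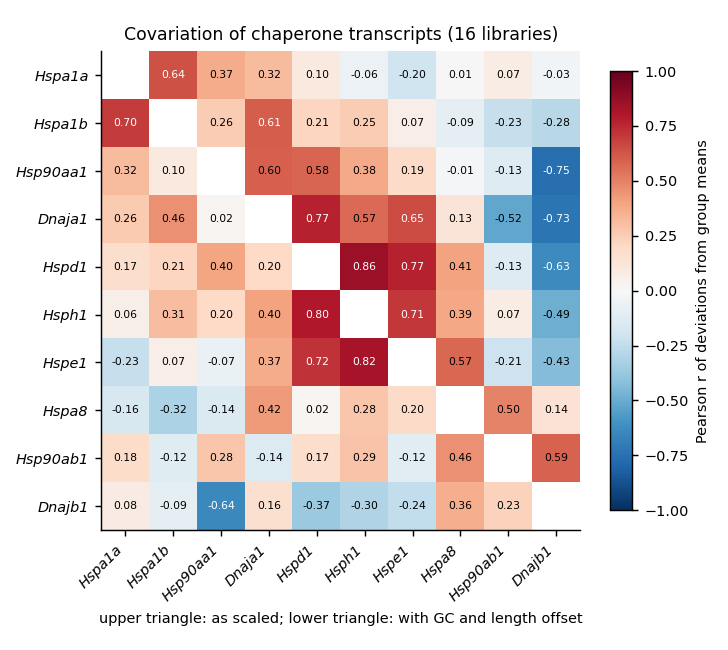
Pearson r between chaperone transcripts over 16 libraries, of log2 CPM minus the group mean, above the diagonal as scaled and below it after an offset for GC content and transcript length. The Hspd1, Hsph1 and Hspe1 block keeps values of 0.709 to 0.859 on both sides, whereas most of Dnaja1's values shrink below the diagonal.

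By the mean standardised level of the 10 members over the 16 libraries, the tested genes of at least 1 CPM with the most similar pattern were Cct8 (Pearson r 0.897), Cct6a (0.889), Hat1 (0.871), Pex13 (0.863) and Cct4 (0.856). Cct8, Cct6a and Cct4 encode subunits of CCT, the cytosolic chaperonin that folds actin and tubulin. This comparison kept the differences between groups and used no offset for GC content and length, with which many correlations among the members shrank. The named genes are the highest of all genes compared, so the values are a description without a test.

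Of the 96 tested genes in 8 related lists of regulators, relatives and cochaperones, each counted once, 8 were called between genotypes in centroblasts (8.33%, against 10.5% of all genes) and 14 in centrocytes (14.6%, against 16.5%), so the shares were no higher than over all genes. Of 4 tested genes in the list of heat shock factors, which also holds the binding protein gene Hsbp1, 1 fell in mutant centroblasts (Hsf2) and 0 rose. In mutant centrocytes 1 fell (Hsf2) and 1 rose (Hsbp1), so no heat shock factor gene itself was called higher. Hsf2, a relative of HSF1 that binds the same elements, measured 5.43, 4.00, 5.48 and 5.42 CPM in mutant centrocytes against 8.08, 11.3, 9.84 and 9.60 CPM in control centrocytes. In mutant centroblasts it measured 5.38, 6.36, 7.10 and 6.67 CPM against 15.9, 13.8, 10.9 and 8.28 CPM in control centroblasts. The groups did not overlap in either zone, and it fell by 0.93 ± 0.188 on the log2 scale in mutant centrocytes (adjusted p = 0.00277) and by 0.94 ± 0.186 in mutant centroblasts (adjusted p = 0.00293).

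Hsf1 itself, named here after its values were seen, averaged 49.9 ± 4.96 CPM in mutant centrocytes and 55.4 ± 2.19 CPM in control centrocytes, and 49.4 ± 2.98 CPM in mutant centroblasts and 47.9 ± 9.00 CPM in control centroblasts (SD, n = 4 each), without a call. Hsbp1, whose product binds heat shock factor trimers, rose in mutant centrocytes to 114 ± 17.9 CPM against 78.8 ± 8.04 CPM in control centrocytes (log2 0.53 ± 0.122, adjusted p = 0.00662). Without mutant centrocyte replicates 3 and 4, the libraries with the highest macrophage transcripts, its value was 0.41 (adjusted p = 0.0722).

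Of 7 tested relatives in the HSP70 and HSP110 families, 2 fell in mutants in each zone and 0 rose. Hspa12a, a distant HSP70 relative, measured 4.15, 3.52, 2.81 and 4.37 CPM in mutant centrocytes against 11.2, 13.1, 8.29 and 11.7 CPM in control centrocytes, and fell by 1.57 ± 0.190 (adjusted p = 4.95e-05). In mutant centroblasts it measured 4.85, 3.70, 4.07 and 5.76 CPM against 12.6, 13.7, 13.2 and 9.83 CPM in control centroblasts, and fell by 1.42 ± 0.188 (adjusted p = 0.000115). Hspa4l, an HSP110 relative of Hsph1, fell by 0.99 ± 0.231 in centrocytes (adjusted p = 0.00771) and by 1.07 ± 0.232 in centroblasts (adjusted p = 0.00536), where 1 control library, at 9.90 CPM, lay within the mutant range of 7.26 to 10.2 CPM. Hspa4, the most abundant of these relatives, did not pass, at -0.16 ± 0.127 in centrocytes and -0.26 ± 0.127 in centroblasts.

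Of 28 tested J-domain genes outside the 10, 2 rose and 2 fell in mutant centrocytes, and 1 rose and 2 fell in mutant centroblasts. Dnaja4, a relative of Dnaja1, rose to 2.74 ± 0.758 CPM in mutant centrocytes against 0.807 ± 0.179 CPM in control centrocytes, and to 1.58 ± 0.112 CPM in mutant centroblasts against 0.604 ± 0.232 CPM in control centroblasts (log2 1.76 ± 0.279 and 1.39 ± 0.286, adjusted p = 0.000455 and 0.00388). Dnajb4, a cytosolic relative of Dnajb1, fell to 3.89 ± 0.301 CPM in mutant centrocytes against 9.73 ± 1.58 CPM in control centrocytes, and to 3.95 ± 0.244 CPM in mutant centroblasts against 10.2 ± 3.19 CPM in control centroblasts (adjusted p = 0.000284 and 0.000224). Dnajb14, a J-domain protein of the endoplasmic reticulum membrane, fell to 2.83 ± 0.214 CPM in mutant centrocytes against 6.73 ± 1.38 CPM in control centrocytes (log2 -1.25 ± 0.181, adjusted p = 0.000231). It fell to 1.67 ± 0.334 CPM in mutant centroblasts against 4.93 ± 0.484 CPM in control centroblasts (log2 -1.55 ± 0.186, adjusted p = 4.52e-05). All of these means are over 4 libraries with the SD.

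Among 21 tested HSP90 cochaperones 2 fell in mutants in each zone and 0 rose. Fkbp5, the immunophilin that HSP90 carries in steroid receptor complexes, fell to 54.5 ± 10.3 CPM in mutant centrocytes against 84.9 ± 5.32 CPM in control centrocytes, and to 54.1 ± 5.47 CPM in mutant centroblasts against 94.1 ± 4.60 CPM in control centroblasts (log2 -0.64 ± 0.122 and -0.80 ± 0.122). Tsc1, a subunit of the complex that restrains mTORC1 and also a cochaperone of HSP90, fell by 0.56 ± 0.108 in centrocytes and by 0.53 ± 0.108 in centroblasts. In Hsf2, Hspa12a, Hspa4l, Dnaja4, Dnajb4, Dnajb14, Fkbp5 and Tsc1 the calls in both zones passed in all 26 other settings tried.

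In the remaining lists the test of whether the genotype effect differed between zones called 0 genes. Of 13 HSP70 exchange and adaptor factors, 1 fell in mutant centrocytes relative to control centrocytes, Bag3, an adaptor that HSF1 is known to induce. Bag3 measured 1.34 ± 0.396 CPM in mutant centrocytes and 3.01 ± 0.125 CPM in control centrocytes (log2 -1.17 ± 0.292, adjusted p = 0.0115). Between genotypes 0 were called in centroblasts, where Bag3 differed by -0.90 (adjusted p = 0.0587). Of 14 subunits of CCT and of prefoldin, which hands unfolded actin and tubulin to CCT, 2 rose in mutant centrocytes, Pfdn5 (0.74 ± 0.174) and Pfdn1 (0.59 ± 0.156), and 0 were called in centroblasts, where the values were 0.35 for Pfdn5 (adjusted p = 0.239) and 0.40 for Pfdn1 (adjusted p = 0.124). Without mutant centrocyte replicates 3 and 4, with 2 mutant libraries remaining, the values were -1.13 for Bag3 (adjusted p = 0.071), 0.55 for Pfdn5 (adjusted p = 0.0919) and 0.44 for Pfdn1 (adjusted p = 0.15). Of 12 mitochondrial proteostasis genes 1 rose in mutant centrocytes and 0 were called in centroblasts. The 1 tested small heat shock protein gene of 9, Hspb6, was not called in any comparison.

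**Figure D5:**
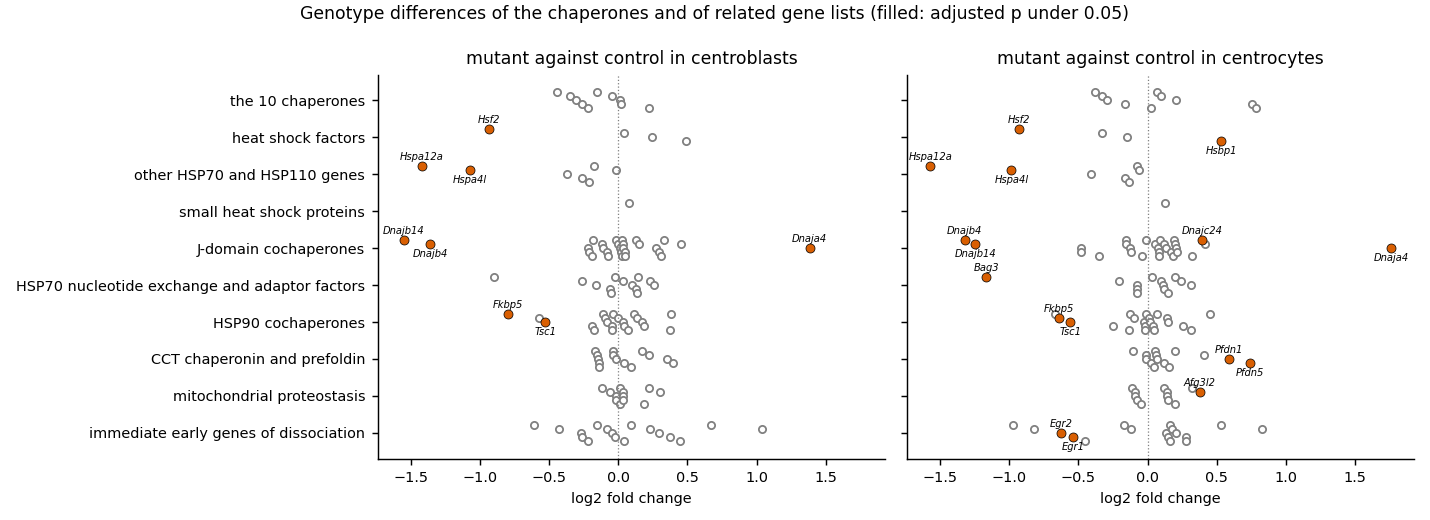
Log2 fold change, mutant against control, of the 10 chaperones and of 9 related gene lists, 1 point per gene, in centroblasts (left) and centrocytes (right); filled points passed an adjusted p of 0.05. The 10 chaperones have no filled point, while Hsf2, Hspa12a, Hspa4l, Dnajb4, Dnajb14, Fkbp5 and Tsc1 lie below 0 and Dnaja4 above 0 in both panels.

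Between zones, some CCT, prefoldin and HSP70-family genes were called lower in centrocytes. Of the 14 CCT and prefoldin genes 2 fell in mutant centrocytes relative to mutant centroblasts, and 0 rose. In control centrocytes relative to control centroblasts 5 fell and 0 rose. Over all genes, 7.07% were called lower and 8.92% higher in mutants, and 12.9% lower and 14.9% higher in controls. Tcp1, a CCT subunit, had 549 ± 50.4 CPM in mutant centrocytes against 703 ± 75.2 CPM in mutant centroblasts (log2 -0.36 ± 0.115, adjusted p = 0.0419, and up to 0.122 in the 9 of 26 other settings that ended the call). In controls it had 529 ± 50.4 CPM in centrocytes against 774 ± 98.6 CPM in centroblasts (log2 -0.55 ± 0.115, adjusted p = 0.00198). Of 7 tested relatives in the HSP70 and HSP110 families, 2 fell and 0 rose in centrocytes of each genotype, with median log2 values of -0.016 in mutants and -0.154 in controls. Hspa4 fell by 0.40 ± 0.127 in mutant centrocytes, a call that 10 settings ended, and by 0.50 ± 0.127 in control centrocytes. Hspa9 went the other way without a call, at 273 CPM in mutant centrocytes against 240 CPM in mutant centroblasts, and 289 against 244 CPM in controls. Rpap3, of the R2TP complex that works with HSP90, fell by 0.64 ± 0.112 and by 0.73 ± 0.112. Stip1, which links HSP70 to HSP90, fell in control centrocytes by 0.43 ± 0.111 (adjusted p = 0.00822), one of 3 of the 13 exchange and adaptor genes that fell there. Ppp5c, a phosphatase bound to HSP90, rose in centrocytes by 0.34 ± 0.105 in mutants, where 7 settings ended the call, and by 0.41 ± 0.105 in controls. Of 21 tested HSP90 cochaperones, Rpap3 was the 1 that fell and Ppp5c the 1 that rose in each genotype. Dnajb5 rose by 0.55 ± 0.121 in mutant and by 0.52 ± 0.121 in control centrocytes, one of 3 of the 28 other J-domain genes that rose in each genotype, while 1 fell in mutants and 3 fell in controls.

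Transcripts that rise fast when tissue is dissociated overlap with those of light zone B cell activation. Of 17 immediate early genes, 6 rose and 2 fell in mutant centrocytes relative to mutant centroblasts (8.92% and 7.07% of all genes). In control centrocytes relative to control centroblasts 7 rose and 2 fell (14.9% and 12.9% of all genes). Nr4a1 was higher in centrocytes by 1.80 ± 0.192 in mutants and by 2.01 ± 0.194 in controls, and Atf3 was lower by 2.69 ± 0.270 and by 3.07 ± 0.282. Between genotypes 2 of the 17 fell in mutant centrocytes, against 9.15% of all genes, and 0 were called in centroblasts (2 at an unadjusted p under 0.05). Egr1 was among those that fell (-0.54 ± 0.179, adjusted p = 0.0475), and 11 of the 26 other settings ended its call. The summed level of the list was 727 to 1083 CPM in mutant centrocytes and 794 to 900.4 CPM in control centrocytes, and 700.3 to 785 CPM in mutant centroblasts and 634 to 817 CPM in control centroblasts. Its part in the chaperone levels was not tested.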

How the data were processed

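RNA sequencing counts of 16 libraries were used as deposited, 1 column per library in a table of raw counts per gene symbol, which the authors made, per the submitters' processing notes, with Trim Galore, cutadapt, STAR 2.5.3a and featureCounts 1.4.5-p1 of Subread on mm10. Annotation, strand setting and the treatment of reads with several matches are not given in the sources used here; 0 rows named no gene. Libraries were TruSeq preparations from sorted cells, per the labels' protocols, each labelled a biological replicate.

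Counts were analysed with edgeR 4.0.16 (R 4.3.3): filterByExpr by group kept 15240 of 32901 genes with a count, TMM factors scaled the libraries, and glmQLFit with 1 mean per group over all 16 libraries (12 residual degrees of freedom) was tested with glmQLFTest, 2-sided, with Benjamini-Hochberg adjustment over all tested genes at 0.05. CPM are counts per 1000000 of TMM-scaled library size; values after ± are SE for log2 fold changes and SD for levels. GENCODE M21, joined by symbol, gave exon length and GC content for 96.9% of tested genes. Total counts of 35230563 to 44466911 leave counting error small except for Hspa1a and Hspa1b. The fit was also run on counts simulated as independent libraries from mean levels and fitted spread, with changes placed in mutant centroblasts only. Such counts cannot speak to shared mice, to shifts with base composition or to macrophage transcripts.

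Replicates of a group differed by far more than sampling noise (chi-square per degree of freedom of at least 16.7). Same-numbered centrocyte and centroblast libraries deviated together in mutants (correlations 0.263 to 0.327), but not in every pair in controls (-0.006 to 0.452). Same-numbered mutants and controls did not deviate together in every pair either (-0.089 to 0.344). Libraries with the same number also shared sex, and not every library correlated best with its own number. The main fit therefore treated all libraries as unpaired, and the numbers entered only in the replicate block. Alternatives were DESeq2 1.42.0, DESeq2's size factors, an unfiltered table, a minimum mean of 1 CPM, fits of only the 2 groups compared, a replicate block, a sex term, an offset for GC content and length (natural splines of 4 degrees of freedom) with and without the block, mutant centrocyte replicates 3 and 4 left out, and each library left out. The male against female comparison was added after the data were seen and repeated without the filter, with the offset, within each zone and without each library. The 10 members, the related lists and the alternatives were chosen with earlier results of these data known. Named related genes are, per list, up to 2 called genes per direction with the lowest adjusted p in each comparison and the most abundant gene. Promoters are RefSeq windows; p-values assume that libraries came from separate mice.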

Additional observations from a re-analysis of the deposited data

Results flagged for a closer look

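Hspa8 in control centrocyte replicate 1 stood far above the other 3 libraries of its group, at 398 CPM against 306 to 313 CPM. Its gap to the next library was 0.918 of the group's whole range, beyond Dixon's critical value (95%) for 4 samples. The members were looked at in 40 sets of 4 libraries, and chance alone marks about 1 in 20 such sets. Without this library the zone difference of Hspa8 in controls was -0.37 on the log2 scale and passed the threshold (adjusted p = 0.0311).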

How the results depend on the processing

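The call of Dnajb1 between zones in controls was kept under all 26 alternatives, and no called member changed direction. Among the genotype and zone results of the 10 members, 0 were called higher or lower in each comparison except that 1 (Dnajb1) was called lower between zones in controls. For the genotype in centroblasts, leaving out 1 library each time gave 0 to 1 called lower (Hsp90aa1 without control centroblast replicate 4). For the genotype in centrocytes, 1 was called lower with the compared groups alone (Hsp90aa1), 1 with the GC and length offset (Hspd1) and 2 with that offset and the replicate block (both). Between zones in mutants, the offset called 1 lower (Dnajb1), and offset plus block called 2 lower (Dnajb1 and Hsph1) and 2 higher (Hspd1 and Hspe1). In controls the offset called 2 lower (Dnajb1 and Hsp90ab1) and 1 higher (Hspd1), and offset plus block called 2 lower (Dnajb1 and Hsph1) and 2 higher (Hspd1 and Hspe1). Leaving out 1 library each time gave 1 to 3 lower there, with Hspa8 and Hsp90ab1 added without control centrocyte replicate 1. The cause of these changes was not tested.

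Sign changes were seen in values that were not called. For the genotype in centroblasts, Hspa1a was -0.169 with the replicate block, -0.079 with a sex term, -0.202 with the offset and -0.335 with offset and block; Hspa1b was -0.097 with the offset; and Hspe1 was -0.014 with the block, -0.035 with the offset and -0.048 with both. For the genotype in centrocytes, Hspa8 was -0.160 and Hspe1 -0.109 without mutant centrocyte replicates 3 and 4, and Dnaja1 was 0.033 with the offset and 0.029 with offset and block. Between zones in mutants, without those 2 libraries, Hspa8 was -0.157, Dnaja1 -0.044 and Hspe1 -0.094. Between zones in controls, Hspa1b was -0.356 with the offset and Dnaja1 0.006 with the block. With 1 library left out each time, the values for the genotype in centroblasts were -0.710 to 0.275 for Hspa1a, -0.132 to 0.855 for Hspa1b and -0.194 to 0.142 for Hspe1. In centrocytes they were -0.081 to 0.116 for Hspa8, -0.034 to 0.341 for Hspe1 and -0.005 to 0.172 for Hsp90ab1. Between zones in mutants they were -0.076 to 0.102 for Hspa8, -0.092 to 0.121 for Dnaja1, -0.016 to 0.425 for Hspe1 and -0.067 to 0.215 for Hsp90aa1. Between zones in controls they were -0.127 to 0.139 for Dnaja1, -0.291 to 0.691 for Hspa1b, -0.168 to 0.249 for Hsp90aa1, -0.093 to 0.118 for Hspe1 and -0.738 to 0.042 for Hspa1a.

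The replicate block alone changed no member's call. Same-numbered mutants and controls correlated at -0.028 to 0.344 in centroblasts and -0.089 to 0.123 in centrocytes, and not every library correlated best with its own number. Over all genes, the genotype in centroblasts called 1595 genes, 871 with the block, 1056 in a fit of centroblasts only and 2833 with the offset. In centrocytes it called 2517, 4088 with the offset, 1224 without mutant centrocyte replicates 3 and 4, and 1601, 1646 and 1641 without control centrocyte replicate 2, 3 or 4. Between zones in mutants the count was 2438, 4082 with the offset and 4753 with offset and block. Hspa1a and Hspa1b rested on the fewest reads, 6 to 163 per library.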
